A study of Mus musculus with 115 samples.

Results

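This account covers 8 genes that encode transcriptional regulators of hormone-dependent genes in mouse liver: Bcl6, Cux2, Tox, Trim24, Foxa1, Foxa2, Onecut1 and Cebpa. They were chosen by name, and each was looked up by its gene symbol (Cux2 also under its older symbol Cutl2) among the 25697 probes of an Illumina bead array. Probes for 6 of the 8 genes were found among 18120 gene symbols on the array, 9 probes in all, with 3 for Cux2 and 2 for Foxa2. Tox and Trim24 were not analysed here. In liver 5 probes, 1 each for Bcl6, Cux2, Foxa1, Foxa2 and Cebpa, were bright enough to test, among 11317 tested probes. To be tested, a probe had to be detected (detection p under 0.01) on at least 5 arrays, the size of a group.

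The mice were C57BL/6J animals of the core genotypes model, which separates gonad type from sex chromosomes. Their Y chromosome (Y-) lacks Sry, the gene that starts testis development, and some mice carry Sry as an autosomal transgene. XX and XY- mice lack Sry and had ovaries; XXSry and XY-Sry mice carry the transgene and had testes. Every mouse was gonadectomised at 75 days of age and received a Silastic capsule for 3 weeks, which was empty (blank), held testosterone at 5 mM, or held 50 µg of estradiol. The 4 genotypes and 3 capsules gave 12 groups of 5 liver arrays, 60 in all, and 55 arrays of inguinal fat in groups of 3 to 5. The labels of 1 fat array, XX estradiol replicate 1, name different capsules in different fields, and it was counted with estradiol. The blank mice are gonadectomised animals without hormone, not intact ones. Nothing in the labels states that the samples of a group came from separate animals, so p-values measure the spread between these samples.

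In rodent liver the sexes differ in how the pituitary releases growth hormone, in pulses in males and almost steadily in females, and the hepatocyte reads the pattern through the growth hormone receptor, the kinase JAK2 and the transcription factor STAT5. Bcl6 is a repressor that competes with STAT5 for related DNA sites and is known as male-biased in liver, while Cux2, a homeodomain repressor, and Tox, an HMG-box protein, are known as female-biased there. Trim24 is a cofactor of nuclear receptors. Foxa1 and Foxa2 open chromatin as pioneer factors, Onecut1 (HNF6) is a homeodomain factor that follows growth hormone, and Cebpa is a bZIP factor that maintains hepatocyte genes.

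The arrays read as liver. The 7 probes of a hepatocyte marker list (6 genes) were all tested, and the log2 of their summed signal lay between 15.44 and 16.18 over the 60 arrays. The median raw signal per array was 124 to 159, and 31.8% to 41% of probes were detected. A pair of arrays stood apart. On XY-Sry testosterone replicate 5, both of the sex-chromosome transcripts checked went against the label. XY- estradiol replicate 5 lay with the testosterone arrays for Cux2, as given below. All levels are normalised signals on a log2 scale, which rank samples for 1 probe and not probes against each other. In bulk tissue, fewer cells of a type and less RNA per cell cannot be told apart.

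With testosterone Cux2 fell and Bcl6 rose, and the other 3 tested regulators did not pass the test against blank. A difference passed when its adjusted p, from limma with Benjamini-Hochberg adjustment over all 11317 probes, was under 0.05. Thus 2 of 5 regulator probes passed, 1 higher and 1 lower, where 19.1% of all tested probes passed (8.17% higher and 10.9% lower). The median difference over the 5 was 0.03, beside 0.003 over all probes.

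Cux2 (probe ILMN_1234471) was read on every blank liver and on no testosterone liver. The 20 blank arrays ran from 6.76 to 9.17 with a median of 8.10, and all 20 were detected. The 20 testosterone arrays ran from 4.32 to 5.21 with a median of 4.71, and 0 of 20 were detected. The arms did not overlap, and the testosterone readings lie in the range of undetected probes. The fitted difference was -3.39 ± 0.235 (SE; adjusted p = 1.12e-17, limma). Because no testosterone array was above background, the fold is a lower bound, with blank at least 5.82-fold higher than testosterone. For this bound the testosterone mean was taken at the floor of detection, 5.57, in place of the measured 4.72. Without background correction, which leaves a shared background under every value, the difference was -1.58.

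Cux2 passed for testosterone minus blank in 4 of 4 genotypes, with 0 of 5 testosterone arrays detected in each, so the sizes are again lower bounds. Blank was at least 6.05-fold higher in XX mice (measured difference -3.47; 2.51% of all tested probes passed there). It was at least 6.93-fold higher in XY- mice (-3.50; 2.01%). The bounds were 6.44-fold in XXSry mice (-3.62; 3.42%) and 4.24-fold in XY-Sry mice (-2.98; 1.76%). The tests of whether these differences depended on gonad (0.18, adjusted p = 1, limma) or sex chromosomes (-0.30, adjusted p = 1, limma) set blank levels against a shared floor, and do not show that the loss was alike in size. The number that opens each array's column name was taken as its slide, which no label states. This gave 8 slides, and on the 3 slides that held both arms the differences were -3.12, -3.36 and -3.45. With slide as a fixed block the difference was -3.43.

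**Figure D1:**
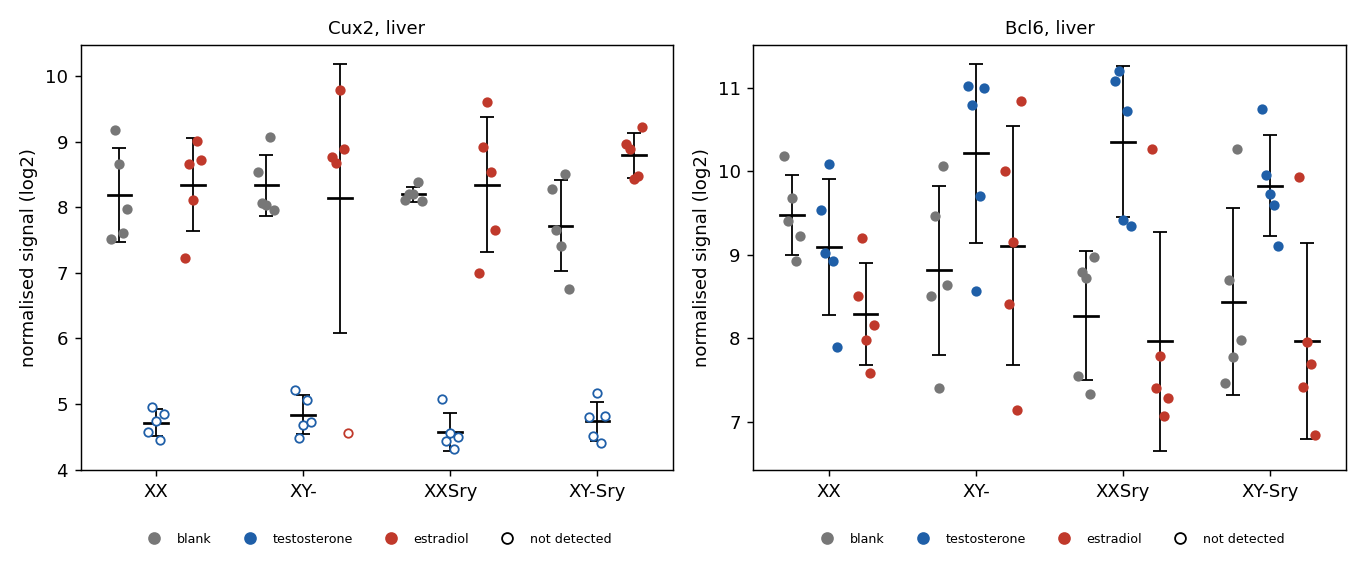
Normalised signal (log2, vertical axis) of Cux2 (left) and Bcl6 (right) on each of the 60 liver arrays by genotype and treatment; horizontal bars are group means, whiskers 1 SD with n = 5, and open points are arrays on which the probe was not detected. Every testosterone point of Cux2 lies at or below 5.21, as does 1 estradiol point of the XY- group at 4.56, while Bcl6 points of different treatments overlap within each genotype except XXSry blank and testosterone.

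Estradiol left Cux2 near its blank level. The 20 estradiol arrays ran from 4.56 to 9.79 with a median of 8.70, and 19 of 20 were detected. Estradiol minus blank was 0.29 ± 0.235 (SE; 95% interval -0.18 to 0.77, adjusted p = 0.527, limma). The value turns on 1 array. In the XY- estradiol group the 5 arrays read 8.76, 8.68, 9.79, 8.89 and 4.56, and the last, replicate 5, was not detected and lay inside the testosterone range. Without that array estradiol minus blank was 0.52 (adjusted p = 0.0412, limma). By genotype, estradiol minus blank was 0.16 in XX mice (2.68% of all probes passed) and -0.20 in XY- mice (0.0177%). It was 0.15 in XXSry mice (0.309%) and 1.07 in XY-Sry mice (0.504%). Of these 4 differences 0 passed with limma, and 1 (XY-Sry) had an unadjusted p under 0.05. On the 2 slides that held estradiol and blank arrays the differences were 0.06 and 0.86.

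Set directly against each other, testosterone and estradiol differed in Cux2 by -3.69 ± 0.235 (SE; adjusted p = 7.87e-19, limma). Estradiol was at least 7.13-fold higher than testosterone, and at least 8.21-fold higher without XY- estradiol replicate 5. Without background correction the difference was -1.85. On the 2 slides that held both hormones it was -4.19 and -4.10.

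In the order of the 12 groups, Cux2 fell into a high and a low set. The 8 blank and estradiol groups had means from 8.79 (XY-Sry estradiol) down to 7.72 (XY-Sry blank), and the 4 testosterone groups from 4.84 down to 4.58. The gap between the sets was 2.88. Among the other neighbours the largest gap was 0.45, against group SDs of 0.12 to 2.05. The XXSry blank group was the most uniform, at 8.10, 8.21, 8.20, 8.38 and 8.09, and the XY- estradiol group the most spread, through replicate 5.

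The other Cux2 probes gave no second reading of this pattern. Probe ILMN_1248236 was detected on 1 of 60 liver arrays (levels 4.44 to 5.98) and probe ILMN_2971011 on 0 of 60 (4.33 to 5.22). The Cux2 result therefore rests on 1 probe.

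Bcl6 (probe ILMN_1230353) was detected on all 60 liver arrays and was higher with testosterone. The 20 blank arrays ran from 7.34 to 10.27 with a median of 8.76. The 20 testosterone arrays ran from 7.90 to 11.21 with a median of 9.72, and the 20 estradiol arrays from 6.84 to 10.85 with a median of 7.97. The arms overlapped over much of their range. Testosterone minus blank was 1.12 ± 0.293 (SE; 95% interval 0.54 to 1.71, adjusted p = 0.00396, limma), a 2.18-fold rise. Estradiol minus blank was -0.42 (interval -1.01 to 0.17, adjusted p = 0.452, limma). Testosterone minus estradiol was 1.54 ± 0.293 (SE; adjusted p = 5.68e-05, limma).

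Sequence upstream of Bcl6 is shown here because the gene's levels are set beside those of STAT5-induced genes further on. STAT5 dimers are known to bind the palindrome TTCNNNGAA, which reads the same on both strands. In the RefSeq promoter table (build GRCm38.p6), the 250 bases before each of the 32851 listed starts were searched for it. It occurred in 7.02% of these windows, and 0.317% held it more than once. Bcl6 has 2 listed starts on the minus strand. The window of the upstream start, chr16:23988853-23989102, held 1 match, which begins 118 bases before the start. The window of the downstream start, chr16:23981284-23981533 held 3, which begin 168, 122 and 88 bases before it. The windows are printed 5′ to 3′ on the gene's strand with the palindrome's fixed letters in capitals.
Bcl6 upstream start: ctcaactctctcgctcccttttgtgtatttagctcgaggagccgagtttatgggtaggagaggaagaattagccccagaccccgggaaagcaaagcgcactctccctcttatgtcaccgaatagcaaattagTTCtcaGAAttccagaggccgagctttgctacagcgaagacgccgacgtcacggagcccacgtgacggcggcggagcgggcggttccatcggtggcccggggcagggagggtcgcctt
Bcl6 downstream start: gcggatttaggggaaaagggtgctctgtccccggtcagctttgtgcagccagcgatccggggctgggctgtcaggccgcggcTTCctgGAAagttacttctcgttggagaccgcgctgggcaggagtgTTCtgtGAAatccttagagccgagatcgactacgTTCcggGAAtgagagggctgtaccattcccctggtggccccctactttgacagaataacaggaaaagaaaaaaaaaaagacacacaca
The single windows listed for Foxa1, Onecut1, Cebpa and Cish, the 2 for Cux2 and for Trim24 and the 3 for Foxa2 held 0 matches, which says only that these letters are not in those windows. Of the 3 windows of Prlr, the prolactin receptor, 1 held 1 match, which begins 110 bases before its start. A match is a description of the sequence and not a measured binding site.

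By genotype the Bcl6 response to testosterone was uneven. In XX mice the blank arrays read 10.18, 9.41, 9.68, 8.92 and 9.22, and the testosterone arrays 9.54, 9.02, 10.09, 8.93 and 7.90. The arms overlapped, and testosterone minus blank was -0.39 (adjusted p = 0.891, limma). In XXSry mice the blank arrays read 7.54, 8.79, 8.72, 7.34 and 8.97, and the testosterone arrays 11.08, 11.21, 9.42, 10.73 and 9.35. Here the arms did not overlap, and the difference was 2.08 (adjusted p = 0.0297, limma). That call was lost without any 1 of 5 arrays (blank replicate 1 or 4, testosterone replicate 1, 2 or 4), with differences of 1.85 to 1.99 and adjusted p of 0.0796 to 0.116 (limma). In XY- mice the blank arrays read 8.50, 9.46, 7.41, 10.06 and 8.64 and the testosterone arrays 11.02, 10.80, 8.56, 9.71 and 10.9995. In XY-Sry mice the blank arrays read 7.47, 8.70, 7.78, 10.27 and 7.98 and the testosterone arrays 10.75, 9.96, 9.74, 9.59 and 9.11. Both pairs overlapped, with differences of 1.40 (adjusted p = 0.274, limma) and 1.39 (adjusted p = 0.296, limma). The test of whether the testosterone effect depended on the gonad gave 1.23 (95% interval 0.05 to 2.40, unadjusted p = 0.0406, adjusted p = 0.857, limma) and did not pass.

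Under estradiol 1 array stood above the rest in each genotype that carried Sry. The XX estradiol arrays read 8.51, 9.21, 7.99, 7.59 and 8.16, and the XY- arrays 10.004, 8.41, 9.16, 7.14 and 10.85. The XXSry arrays read 10.27, 7.41, 7.79, 7.07 and 7.29, and the XY-Sry arrays 9.94, 7.41, 7.95, 7.69 and 6.84. Testosterone group means were above estradiol means in 4 of 4 genotypes.

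Slide and the doubted arrays changed the size of the Bcl6 difference but not its call. On the 3 slides with both arms, testosterone minus blank was 1.60, 0.81 and 0.41, and with slide as a fixed block it was 1.38 (adjusted p = 0.00109, limma). On the 2 slides with both hormones, testosterone minus estradiol was 2.14 and 2.04. Estradiol minus blank was 0.62 on 1 slide and -0.30 on another. Without both doubted arrays testosterone minus blank was 1.17.

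Bcl6 varied among samples of the same group more than nearly every other tested probe. Its pooled within-group SD was 0.98, larger than that of 99.75% of tested probes, whose median SD was 0.36. The bead-level standard error of its signal on an array was 0.07 at the median. That error is on the uncorrected signal, which still holds background, so it and the SD are not on the same scale. Cux2's SD was 0.79, but this includes the XY- estradiol array. Foxa1 (0.43), Foxa2 (0.46) and Cebpa (0.42) lay nearer the middle. In the order of the 12 group means Bcl6 ran from 10.36 (XXSry testosterone) to 7.96 (XXSry estradiol), and no neighbours differed by more than 0.39, less than the smallest group SD of 0.48.

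Foxa1 (probe ILMN_1237195), the first of the pioneer factors, was detected on all 60 arrays and shifted by less than 1 log2 unit. Blank arrays ran from 7.54 to 8.92 (median 8.23), testosterone arrays from 7.39 to 9.78 (median 8.56) and estradiol arrays from 7.27 to 8.65 (median 7.98). The arms overlapped. Testosterone minus blank was 0.30 ± 0.132 (SE; unadjusted p = 0.0248, adjusted p = 0.0989, limma), and estradiol minus blank was -0.20 (adjusted p = 0.421, limma). Testosterone minus estradiol was 0.50 ± 0.132 (SE; adjusted p = 0.00398, limma) and passed. In this direct comparison 4 of the 5 regulator probes passed, Bcl6, Foxa1 and Cebpa higher and Cux2 lower with testosterone, where 18.4% of all tested probes passed (7.78% higher and 10.6% lower).

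The group means of Foxa1 kept 1 order in 4 of 4 genotypes, testosterone above blank above estradiol. In XX mice they were 8.71, 8.02 and 7.70, and in XY- mice 8.29, 8.08 and 7.82. In XXSry mice they were 8.57, 8.43 and 8.26, and in XY-Sry mice 8.49, 8.32 and 8.27. Adjacent groups among the 12 differed by at most 0.19, within group SDs of 0.23 to 0.71. On the 2 slides with both hormones testosterone minus estradiol was 0.75 and 1.02, and with slide as a fixed block it was 0.71. With that block estradiol minus blank was -0.44 (adjusted p = 0.0353, limma), which passed. Of 9 tested probes of paralogs of the regulators 2 rose, 1 fell and 6 did not pass with testosterone, and 1 rose, 1 fell and 7 did not pass with estradiol. Over all tested probes 8.17% rose and 10.9% fell with testosterone, and 3.55% rose and 3.27% fell with estradiol. Foxa3, the paralog abundant in liver, rose with testosterone by 0.43 ± 0.098 (SE; adjusted p = 0.00094, limma).

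Foxa2 (probe ILMN_1246216) was dim and detected on 49 of 60 arrays. Blank arrays ran from 5.21 to 6.97, testosterone arrays from 4.81 to 6.75 and estradiol arrays from 5.37 to 6.80. They overlapped almost fully, and the largest treatment difference was testosterone minus blank at -0.19 (95% interval -0.47 to 0.09, adjusted p = 0.379, limma). The values by genotype went both ways, with testosterone minus blank at 0.09 in XX, 0.21 in XY-, -0.76 in XXSry and -0.29 in XY-Sry mice. The test of this dependence on the gonad gave -0.68 (interval -1.24 to -0.12, unadjusted p = 0.0187, adjusted p = 0.763, limma) and did not pass. On the 3 slides with both arms testosterone minus blank was -0.74, -0.72 and -0.05, and with slide as a fixed block it was -0.37 (adjusted p = 0.0477, limma), just past the threshold. With the same block the XXSry difference was -1.01 (adjusted p = 0.00934, limma), which passed. The second Foxa2 probe was detected on 0 of 60 arrays (4.35 to 5.60).

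Cebpa (probe ILMN_1247147) was lowest under estradiol. Blank arrays ran from 8.34 to 9.80 (median 8.80), testosterone arrays from 8.20 to 9.34 (median 8.96) and estradiol arrays from 7.87 to 9.19 (median 8.60). The arms overlapped, but the 4 estradiol groups, with means of 8.49 (XX), 8.40 (XY-), 8.63 (XXSry) and 8.62 (XY-Sry), were the lowest of the 12. Estradiol minus blank was -0.35 ± 0.130 (SE; unadjusted p = 0.00939, adjusted p = 0.0934, limma) and testosterone minus blank 0.03 (95% interval -0.23 to 0.29). Testosterone minus estradiol was 0.38 ± 0.130 (SE; adjusted p = 0.0296, limma) and passed. With slide as a fixed block it was 0.26 (adjusted p = 0.261, limma) and no longer passed, and on the 2 slides with both hormones it was 0.25 and 0.17. Among the paralogs counted above, Cebpb rose with testosterone (0.48, adjusted p = 0.000359, limma) and with estradiol (0.37, adjusted p = 0.0163, limma). Cebpe fell with estradiol by 0.48 (adjusted p = 0.00763, limma).

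Onecut1 had 1 probe, which was detected on 0 of 60 liver arrays, with levels between 4.39 and 5.91. It was not tested, and this says only that the probe was not well above background.

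**Figure D2:**
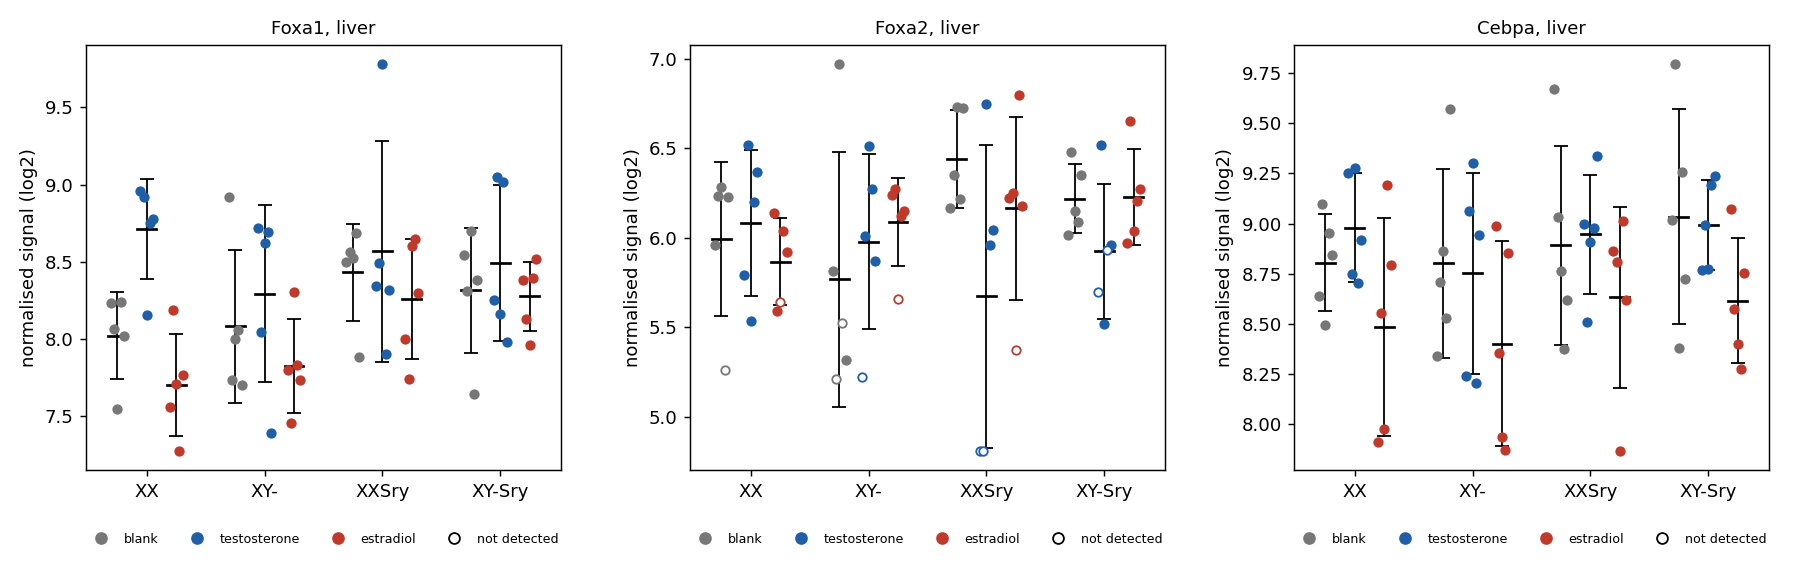
Normalised signal (log2, vertical axis) of Foxa1, Foxa2 and Cebpa on each liver array by genotype and treatment, with group means as bars, 1 SD whiskers (n = 5) and open points for arrays without detection. Treatments overlap in most panels, the Foxa1 means step down from testosterone to blank to estradiol in every genotype, and the 4 estradiol means of Cebpa, 8.40 to 8.63, are the lowest of its 12.

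Against blank, 0 of 5 regulator probes passed for estradiol (1, Cebpa, at an unadjusted p under 0.05), where 6.82% of all tested probes passed with limma. The median difference over the 5 was -0.20, beside -0.02 over all probes. The testosterone and estradiol comparisons share the blank arrays, so their values are given side by side only.

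The gonad borne before gonadectomy and the sex chromosomes left no passing difference in the regulators. For Sry minus no Sry 0 of 5 passed with limma (1 at an unadjusted p under 0.05), where 3.4% of all probes passed. That 1 was Foxa1, at 0.28 ± 0.108 (SE; unadjusted p = 0.0106, adjusted p = 0.177, limma). In blank mice alone 0 of 5 passed (1, Foxa2, at an unadjusted p under 0.05), where 1.75% of all probes passed. There Bcl6 was 8.36 with Sry and 9.15 without, a difference of -0.79 (95% interval -1.62 to 0.04). For XX minus XY 0 of 5 passed (0 at an unadjusted p under 0.05), where 0.186% of all probes passed, and the 5 differences lay between -0.15 and 0.07. Among the interactions 0 of 5 passed for testosterone by gonad (2 at an unadjusted p under 0.05; 0.124% of all probes passed) and for estradiol by gonad (0 at an unadjusted p under 0.05; 0.0795%). For testosterone and for estradiol by sex chromosome 0 of 5 passed (0 at an unadjusted p under 0.05 in each), as did 0 of all 11317 probes.

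**Figure D3:**
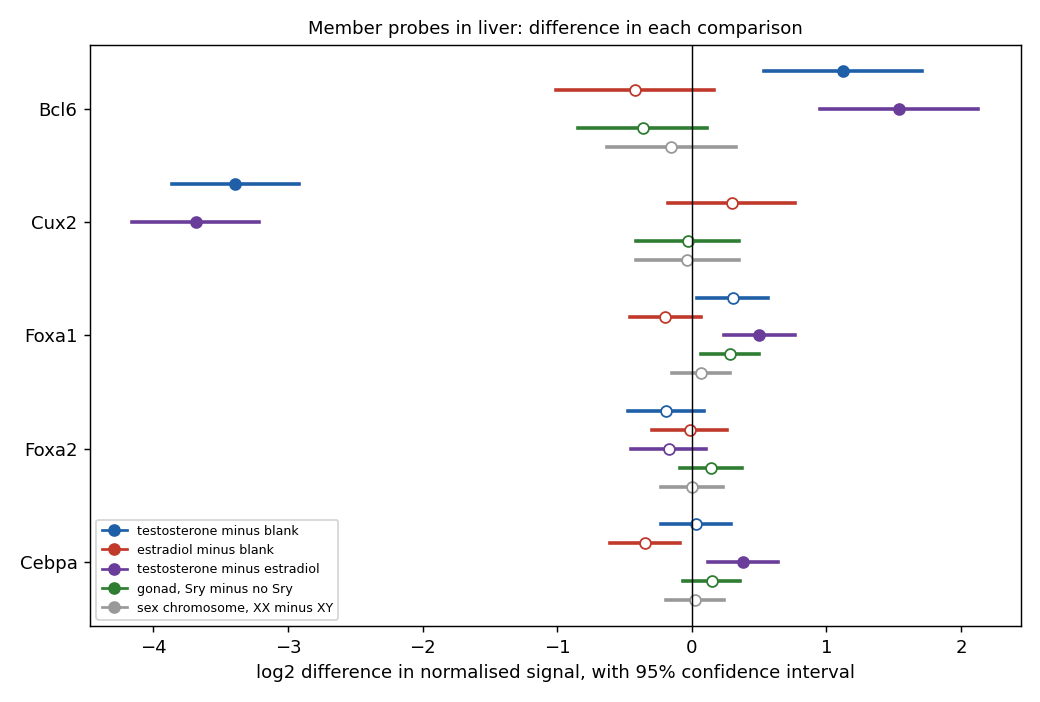
Log2 differences of the 5 tested regulator probes in liver (horizontal axis) for 5 comparisons, with 95% confidence intervals from limma; filled points passed at an adjusted p under 0.05 and open points did not. Cux2 and Bcl6 stand away from 0 in opposite directions in both testosterone comparisons, and every gonad and sex chromosome point is open.

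The genes around the regulators were read from fixed lists. Of a list of growth hormone receptor signalling genes, 25 probes of 15 genes were tested: 7 probes of 6 genes fell with testosterone and 0 rose, with a median of -0.07 beside 0.003 over all probes. Among all tested probes 10.9% fell and 8.17% rose with testosterone, and 3.27% fell and 3.55% rose with estradiol, against which this and the following lists' counts are to be read. Prlr, the prolactin receptor, fell by 2.15 ± 0.128 (SE; adjusted p = 3.71e-20, limma) on 1 probe and by 1.06 on the other tested one. Socs2, a feedback inhibitor of growth hormone signalling, fell by 0.83 ± 0.184 (SE; adjusted p = 0.000699, limma). Irs2, an insulin receptor substrate, fell by 0.66 (adjusted p = 0.00245, limma). Cish, a feedback inhibitor that STAT5 induces, fell by 0.89 (adjusted p = 0.0284, limma). With estradiol 3 probes rose and 0 fell, among them Socs3 by 0.78 (adjusted p = 0.0406, limma) and Stat5a by 0.39 on 1 of its 2 tested probes (adjusted p = 0.043, limma). The receptor Ghr did not pass on either of its probes (0.09 and 0.11 with testosterone). Stat5b had 1 probe, detected on 0 arrays.

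Esr1, the estrogen receptor alpha, fell with testosterone by 1.22 ± 0.138 (SE, adjusted p = 5.71e-10, limma). It was detected on 46 of 60 arrays. Its mean was 6.47 on blank and 5.25 on testosterone, below the 5.57 used as the floor for Cux2. The size of its fall therefore depends on background readings. Of 22 tested probes of other liver-enriched transcription factors 2 rose and 4 fell with testosterone, near the shares over all probes, and 1 rose and 3 fell with estradiol. The lists overlap: the 2 that rose were Cebpb and Foxa3, already counted among the paralogs, and the 1 that rose with estradiol was Cebpb again. Nr5a2 fell with testosterone by 0.42 and Nr1i3, the receptor CAR, by 0.67. Ppara fell with estradiol by 0.63 (adjusted p = 0.00394, limma). Of 10 tested probes of corepressors and partners 3 fell and 0 rose with testosterone, among them Bcor, a corepressor that binds Bcl6 (by 0.52, adjusted p = 0.00038, limma), Trim28 (by 0.30) and Sin3a (by 0.38). Trim28 is also the 1 paralog that fell.

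The genes known for sex bias in liver, on which such regulators are known to act, moved strongly with testosterone. Of the male-biased list 26 of 26 tested probes rose, and of the female-biased list 13 of 15 fell and 0 rose, with medians of 1.76 and -1.52. Cyp4a12a, a fatty acid hydroxylase, rose by 6.11 ± 0.285 (SE), Hsd3b5, a steroid reductase, by 6.27 ± 0.356 (SE) and the complement gene C6 by 3.02. The cytochromes Cyp2b9 and Cyp2b13 fell by 6.13 and 6.77, and the thioesterase Acot3 by 4.61. Some of these sizes depend on readings near background. Mean levels were 5.74 for Cyp4a12a and 6.02 for Hsd3b5 on blank, and 5.23 for Cyp2b13 on testosterone. These genes were detected on 38, 47 and 42 of 60 arrays. With estradiol 7 of the 26 male-biased probes rose, Serpina1e by 1.69 and Egfr by 0.89 among them. On the female-biased list 2 rose and 4 fell, where the steroid hydroxylase Cyp17a1 rose by 2.36 and Hao2 fell by 0.58. Hao2 was detected on 8 of 60 arrays, with means of 5.22 on blank and 4.64 on estradiol. Its fall is thus a difference between readings near background. These lists were drawn up knowing earlier results of these data and are no independent evidence of direction.

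Markers of other liver cells moved with the treatments too, and their part in the regulator results was not tested. Of 13 tested macrophage probes 6 fell and 0 rose with testosterone, 9 rose and 0 fell with estradiol, and 12 fell and 0 rose with Sry. Among all tested probes 2.85% fell with Sry. The log2 of the list's summed signal ran from 11.36 to 13.40 on blank, 10.97 to 12.32 on testosterone and 11.97 to 13.63 on estradiol arrays. Of 6 neutrophil probes 4 rose with estradiol, and the summed signal ran from 8.04 to 11.22 on blank and from 8.32 to 13.39 on estradiol arrays. Lymphocytes also express Bcl6. Of 11 T cell probes 2 were tested and of 12 B cell probes 1, the rest being near background, and 1 of each fell with testosterone. With Sry 2 of the 2 T cell probes, 1 of 1 B cell probe and 3 of 6 neutrophil probes fell. Of the 7 hepatocyte probes 2, both of 1 gene, rose and 0 fell with testosterone (median difference 0.04), and 0 passed with estradiol (median 0.11).

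For Cux2 and Bcl6, which passed against blank, the other 11316 tested probes were ranked by Pearson's r over the 12 group means, as a description. The 12 means share libraries and treatment arms. Those of Cux2 form a high and a low set, so any probe with a strong testosterone response can give a large r. For Cux2 the highest were Prlr (r = 0.986), the cytochrome Cyp2c39 (0.984) and the flavin monooxygenase Fmo4 (0.979), and the lowest were the fatty acid elongase Elovl3 (-0.982) and the cytochrome Cyp2u1 (-0.981). With testosterone Cyp2c39 changed by -1.11 and Fmo4 by -1.01, and Elovl3 by 2.69 and Cyp2u1 by 1.79. For Bcl6 the highest were 2310076L09Rik (0.892), the respiratory chain subunit Ndufs4 (0.883) and the peroxisomal import receptor Pex5 (0.878). The lowest were Cish (-0.914) and the adaptor subunit Ap3m2 (-0.904). Without XY- estradiol replicate 5 the lists changed in part. For Bcl6 the highest were then Ndufs4 (0.907), Rab34 (0.891) and Pex5 (0.886) and the lowest Cish (-0.912) and Nutf2 (-0.875). For Cux2 the highest were Cyp2c39 and Prlr (0.983 each) and Tm6sf2 (0.982), and the lowest Cyp2u1 (-0.981) and Elovl3 (-0.98).

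Because Bcl6 differed so much between samples of 1 group, its deviations from the group mean were set against those of the growth hormone list over the 60 liver arrays. The family held 135 relations, each tested with 100000 permutations within groups, two-sided, and adjusted together by Benjamini-Hochberg, and 5 had an adjusted p under 0.05. Bcl6 and Cish ran opposite to each other, with r = -0.601 and Spearman's rho = -0.626. The array farthest above its group in Bcl6, XXSry estradiol replicate 1 (by 2.30), had a Cish deviation of -1.35. The next, XY-Sry estradiol replicate 1 (1.97), had 0.27, and XY-Sry blank replicate 4 (1.83) had -1.14. After these came the doubted array XY- estradiol replicate 5 (1.735), which had -1.773. The permutation p for r was 1e-05, the smallest these permutations can give (adjusted p = 0.00135), and for rho 2e-05 (adjusted p = 0.0027). Within treatment arms r was -0.747 for blank, -0.652 for testosterone and -0.616 for estradiol (n = 20 arrays each). Without the 2 arrays farthest from the Bcl6 median r was -0.624, and without XY- estradiol replicate 5 alone it was -0.566. Over all 60 arrays, with slide taken out beside the group means, it was -0.594. Among all 11316 other tested probes Cish had the lowest r with Bcl6, with and without slide.

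Bcl6 also ran opposite to Socs2 (r = -0.464, permutation p = 0.00087, adjusted p = 0.0235; rho = -0.419, permutation p = 0.00283, adjusted p = 0.0637). By rho this relation did not pass the adjustment. It was -0.105 in blank, -0.554 in testosterone and -0.679 in estradiol arrays, with n = 20 each, and the difference between arms was not tested. Without the 2 farthest arrays it was -0.444, without XY- estradiol replicate 5 alone -0.422, and with slide -0.394. Igfals, the carrier subunit of circulating IGF1, gave r = -0.360 (adjusted permutation p = 0.0723) and did not pass.

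Foxa1 and Foxa2 ran with Cish rather than against it. For Foxa1 r was 0.575 (permutation p = 0.00013, adjusted p = 0.00877) and rho 0.500 (permutation p = 0.00041, adjusted p = 0.0184). It was 0.557 in blank, 0.702 in testosterone and 0.187 in estradiol arrays. Without the 2 farthest arrays it was 0.484, and with slide 0.605. For Foxa2 r was 0.522 (permutation p = 0.0004, adjusted p = 0.0135) and rho 0.451 (permutation p = 0.00145, adjusted p = 0.0489), with 0.292 in blank, 0.765 in testosterone and 0.065 in estradiol arrays. Without the 2 farthest arrays it was 0.425, and with slide 0.560. Foxa2 is dim, and the differences between arms were not tested.

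Cux2 ran with Prlr on 1 probe (r = 0.681, permutation p = 0.00028, adjusted p = 0.0126, and rho = 0.496, permutation p = 0.00035, adjusted p = 0.0184). The value leaned on XY- estradiol replicate 5: without that array alone r was 0.417. Without the 2 arrays farthest from the Cux2 median it was 0.489. It was 0.196 in blank, 0.518 in testosterone and 0.848 in estradiol arrays, and all testosterone arrays were below detection for Cux2. On the other tested Prlr probe r was 0.322 (permutation p = 0.135, adjusted p = 0.469) and did not pass. Among the 10 pairs of regulators none passed with an adjusted permutation p under 0.05. The lowest adjusted p was that of Bcl6 with Foxa2 (r = -0.375, permutation p = 0.00706, adjusted p = 0.09). Cebpa had no passing relation, its nearest being Ghr on 1 probe (r = 0.378, adjusted permutation p = 0.09).

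**Figure D4:**
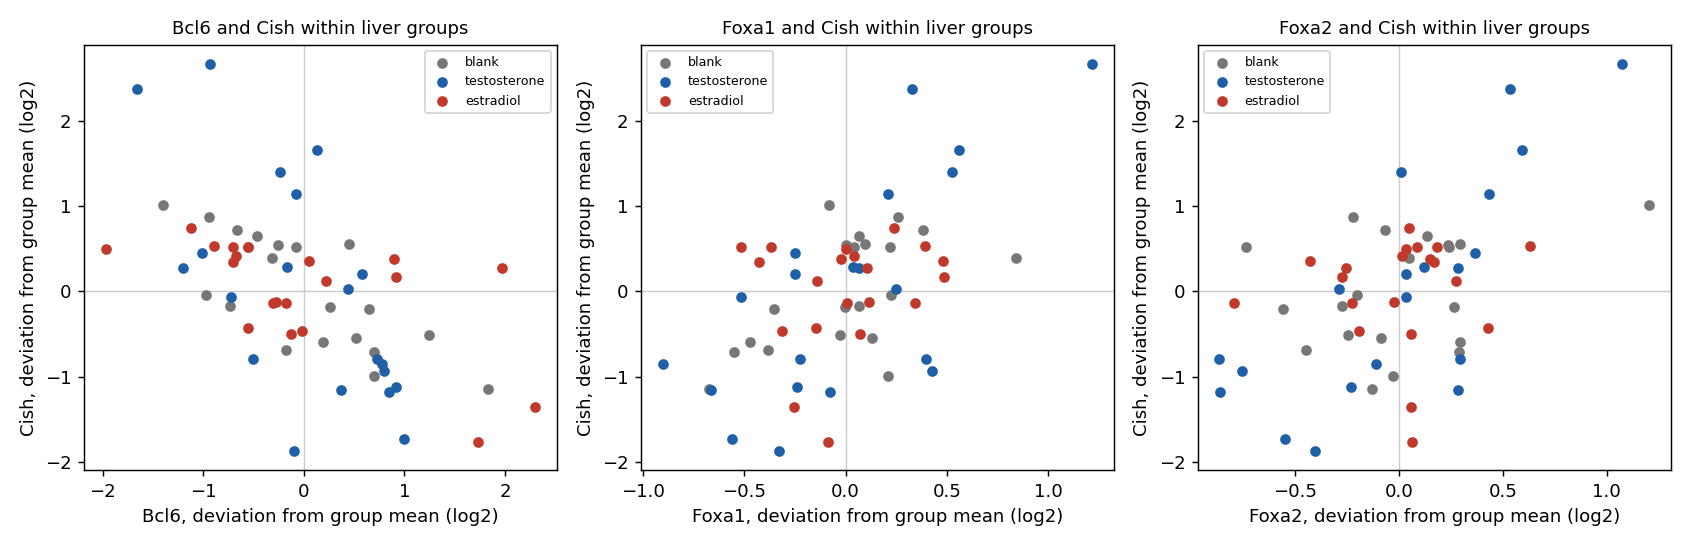
Deviations from the group mean (log2) of Cish (vertical axes) against those of Bcl6, Foxa1 and Foxa2 (horizontal axes) on the 60 liver arrays, coloured by treatment. The Bcl6 cloud slopes down (r = -0.601), and the Foxa1 and Foxa2 clouds slope up (r = 0.575 and 0.522), with the highest Cish deviations on testosterone arrays.

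In inguinal fat, which was read on 55 arrays with 14636 tested probes, 3 of the regulators were tested, Bcl6, Foxa1 and Cebpa. Cux2, Foxa2 and Onecut1 were detected there on at most 1 array per probe. For testosterone minus blank 0 of 3 passed with limma (0 at an unadjusted p under 0.05), where 4.75% of all probes passed. For estradiol minus blank 0 of 3 passed (1, Cebpa, at an unadjusted p under 0.05), where 20.5% passed. Bcl6 in fat averaged 11.28 with testosterone and 10.96 with blank, a difference of 0.32 (95% interval -0.01 to 0.66, adjusted p = 0.287, limma).

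Foxa1 in fat split by gonad. This comparison was added after its values were seen. The 27 arrays from mice without Sry ran from 8.74 to 11.27 with a median of 10.14, and all 27 were detected. The 28 arrays from mice with Sry ran from 4.67 to 8.87 with a median of 5.88, and 13 of 28 were detected, so the other 15 are background readings. The ranges overlapped through 1 array, in the XXSry testosterone group, whose 5 arrays read 4.67, 5.47, 8.23, 8.27 and 8.87. Averaged over the groups the levels were 6.13 with Sry and 10.05 without, a measured difference of -3.92 ± 0.251 (SE; adjusted p = 4.26e-17, limma). Each of the 6 Sry groups held 1 to 3 detected arrays, so no lower bound was formed, and the size depends on the background readings. For this gonad comparison 2 of 3 regulators passed, where 7.34% of all probes passed. Without background correction the difference was -2.52.

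Markers of some other cells differed with Sry in fat, and their part in the Foxa1 and Cebpa results was not tested. Of the 4 probes of the bile duct marker list, which are also epithelial genes elsewhere, 3 fell with Sry. Cldn4 fell by 3.91, Krt7 fell by 2.85 and Sox9 fell by 1.33. The log2 of the list's summed signal ran from 6.85 to 11.31 with Sry and from 9.05 to 12.12 without. Of 6 neutrophil probes 2, both of 1 gene, fell with Sry. The list's summed signal had a median of 10.26 with Sry (8.69 to 12.62) and 12.86 without (10.01 to 14.36). The T cell list's summed signal had a median of 9.68 with Sry (8.62 to 13.56) and 11.32 without (8.84 to 14.40), and none of its 10 tested probes passed (median difference -0.44). The hepatocyte list's summed signal had a median of 8.74 with Sry (7.49 to 15.94) and 8.40 without (7.60 to 13.64). None of its 5 tested probes passed (median difference 0.50). Its highest value lay in the range of the liver arrays, 15.44 to 16.18, though the tissues were normalised separately. Whether some fat arrays held liver RNA was not tested. No tested probe of the macrophage, B cell, NK cell, endothelial or stellate cell lists passed with Sry. In liver the difference of Foxa1 with Sry was 0.28 and did not pass (adjusted p = 0.177, limma). Testosterone minus estradiol of Foxa1 in fat was 0.87 ± 0.300 (SE; adjusted p = 0.0371, limma), where 17.3% of all probes passed. This call was lost with slide as a fixed block (0.91, adjusted p = 0.105, limma) and without any 1 of 14 arrays of the testosterone or estradiol groups. It was kept without XX estradiol replicate 1, the fat array with conflicting labels.

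Cebpa in fat was 10.41 with Sry and 9.72 without, a difference of 0.69 ± 0.217 (SE; adjusted p = 0.0368, limma). The XX blank group held 3 arrays, which read 9.75, 5.72 and 9.52, and the middle one was not detected. Without it the difference was 0.48 (adjusted p = 0.135, limma). In all, leaving out any 1 of 13 arrays ended this call.

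**Figure D5:**
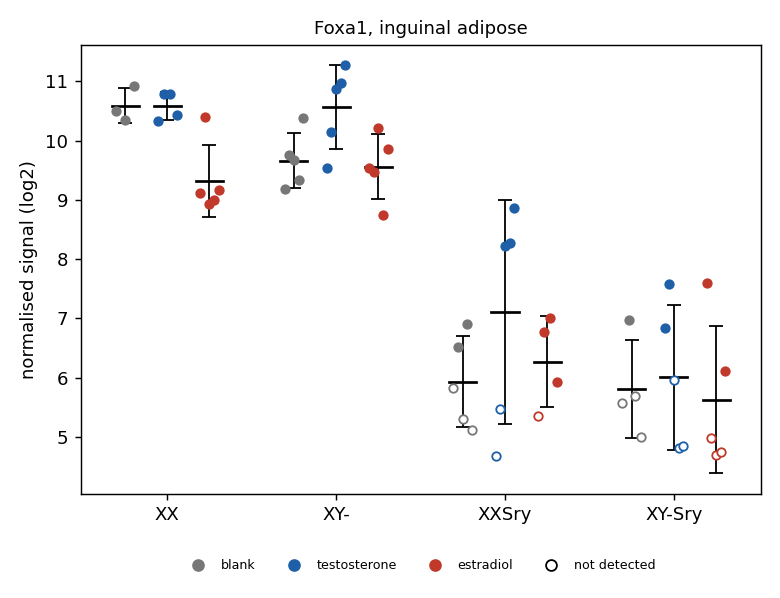
Normalised signal (log2, vertical axis) of Foxa1 on each of the 55 inguinal fat arrays by genotype and treatment, with group means, 1 SD whiskers (n = 3 to 5) and open points for arrays without detection. All XX and XY- points lie at 8.74 or above, and XXSry and XY-Sry points reach 8.87 at most.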

How the data were processed

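Liver and inguinal fat RNA was hybridised to Illumina bead arrays. The authors deposited, per the file headers, an average bead signal intensity per probe with its standard error and a detection p-value per array; the submitters' processing notes name lumi, with no version. The tables read as not yet normalised. The regulators and gene lists were chosen with earlier results of these data known. Signals were corrected with normexp (limma 3.58.1, R 4.3.3; background inferred from the detection p-values, offset 16), quantile normalised and put on a log2 scale. Probes detected (p under 0.01) on at least 5 liver or 3 fat arrays were tested in 1 limma fit over 12 group means per tissue, with Benjamini-Hochberg adjustment over all tested probes. The fit was also run on simulated liver values with independent normal noise. These held no slide effect, detection floor or outlying array, so the run says nothing about those. The number of arrays limits the precision. All regulator probes are named; from each list come the 3 genes with the smallest adjusted p for testosterone and 2 for estradiol that passed, plus the 3 highest and 2 lowest r over group means. Cish, Ghr, Stat5b and Igfals, the markers and fat's Foxa1 by gonad were added after their values were seen. Correlations were permuted with numpy 2.4.6. Alternatives covered background, scaling, offset, filter, slide, array weights, the groups fitted and each array left out. A result of 1 list is not reported here.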

Additional observations from a re-analysis of the deposited data

Results flagged for a closer look

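Over 93 pairs of a tested regulator probe and a group of 4 or 5 arrays, 7 groups held an array whose gap to its nearest neighbour, as a share of the group's range, was above Dixon's 95% critical value (0.71 for 5 arrays, 0.829 for 4). Chance flags about 1 in 20 such groups. In liver Cux2 read 4.56 on XY- estradiol replicate 5, where the other arrays of that group read 8.68 or more. Bcl6 read 10.27 on XXSry estradiol replicate 1, with the next at 7.79. Foxa1 read 8.15 on XX testosterone replicate 3, with the next at 8.75, and 7.88 on XXSry blank replicate 5, with the next at 8.50. Foxa2 read 5.66 on XY- estradiol replicate 3, with the next at 6.12. In fat Bcl6 read 11.63 on XXSry estradiol replicate 2, with the next at 10.59, and Foxa1 read 10.39 on XX estradiol replicate 2, with the next at 9.17.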

How the results depend on the processing

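Of 700 liver regulator differences under the alternatives, 686 kept their side of the threshold, 6 lost it, 8 gained it and 0 changed sign while passing; with 1 array left out it was 4185 of 4200. The liver counts include the sex chromosome and interaction comparisons, where at most 0.186% of all probes passed. Differences there could hardly change side, so these totals are no strict check. In fat 102 of 108 kept their side and 6 lost it. The number of regulator probes passing for testosterone minus blank was 2 to 3 and for testosterone minus estradiol 3 to 5. For estradiol minus blank it was 0, but 2 with median centring (Foxa1 at -0.40 and Cebpa at -0.56), 1 with slide as a fixed block (Foxa1 at -0.44) and 1 without both doubted arrays (Cux2 at 0.52). Median centring moved the median of all tested probes to -0.18 for estradiol minus blank and to 0.11 for testosterone minus estradiol. Leaving out 1 liver array gave 0 to 1 for estradiol minus blank, the 1 coming without XY- estradiol replicate 5. In fat it gave 0 to 1 for estradiol minus blank, where Cebpa passed without XX blank replicate 1 or replicate 3. Cebpa's testosterone minus estradiol call in liver was lost with median centring, with no filter, with slide as a fixed or random block, and without any 1 of 6 arrays, and the cause was not tested. Bcl6 in XXSry mice was lost with median centring and with no filter too, and Foxa1 in fat (testosterone minus estradiol) with 5 of 9 alternatives. Foxa1 in liver passed for testosterone minus blank with array weights (0.42) and without XY- blank replicate 1 or XY- testosterone replicate 5. The Bcl6 and Cux2 calls for testosterone against blank and against estradiol, pooled over genotypes, held under every alternative and with each array left out. The 5 correlations that passed kept an unadjusted permutation p under 0.05 under the 4 alternatives, which were chosen after seeing the data, as were the joint removal of both doubted arrays and the fat regulator differences. No paired analysis was possible because the labels give no replicate numbers that pair samples across groups. Foxa2 and the testosterone readings of Cux2 lie near background, so changes below that level could not be read.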
